A study of Sparus aurata with 16 samples.

Results

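Gilthead sea bream (Sparus aurata) is a carnivorous marine fish. The livers of juveniles fed diet LLH (much carbohydrate with little protein and little lipid) were compared with the livers of juveniles fed diet HLL (much protein with little lipid and little carbohydrate). The members are the liver channels titled LLH or HLL, which are 8 channels of 1 fish each, 4 per diet, among 32 channels in the whole series. Both diets were fed for 23 days, each day at 25 g per kg of fish. The other liver fish were fed diet MHL (a medium protein and a high lipid level with little carbohydrate) or were starved for the same period, and the same 4 conditions were measured in the white skeletal muscle. LLH and HLL are both named low in lipid, though the study lists somewhat more fat and more added fish oil in LLH. They differ in protein and in carbohydrate at once, so the parts of the nutrients cannot be told apart.

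Total RNA of each fish was labelled with Cy5 or Cy3 and hybridised on a custom array with another fish of the same tissue. No array paired LLH with HLL. Fish LLH-1, LLH-3, HLL-1 and HLL-3 carried Cy5, and LLH-2, LLH-4, HLL-2 and HLL-4 carried Cy3, so each dye held 2 fish of each diet. Per liver channel, 57.9 to 66.6% of the spots were well above background and none was saturated. Precision is limited by the small number of arrays. The study kept its fish in aquaria, and the labels do not name the aquarium of a fish. Fish of a diet may have shared one, so diet and aquarium cannot be told apart. In whole liver, fewer cells of a type and less RNA per cell cannot be told apart.

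A carnivorous fish normally covers much of its energy need from amino acids, and its liver is the main site where they are deaminated, where glucose is taken up after a meal and where fatty acids are built. Alanine aminotransferase exchanges an amino group between alanine and 2-oxoglutarate, with pyruvate and glutamate as products, and so joins amino acid to carbohydrate metabolism, in a cytosolic and a mitochondrial form. Pyruvate kinase makes pyruvate in the last step of glycolysis. Acetyl-CoA carboxylase makes malonyl-CoA, which in the ACC1 form feeds fatty acid synthesis and in the ACC2 form restrains the entry of fatty acids into mitochondria. These functions are known from mammals and other vertebrates. Of the 25225 sequences on the array, 8 are listed under symbols of these enzymes, and the others carry only assembly identifiers (isotig and contig numbers, or names of single reads) or, in 2 cases, a probe name. The files do not pair these with genes, so pathway lists and markers of liver and other cell types could not be applied, and the tissue was not checked against markers.

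The labels and the libraries raise a pair of points that touch all results. The Cy5 fish of 1 array is titled HLL-1, while its source name says that it was fed LLH. The title was followed here. It keeps the 4 fish per condition that the study's methods state, which the source name would not. Another liver channel is already titled LLH-1. On the second principal component of the liver channels (10.3% of the variance), HLL-1 had a score of -39.1 and the other HLL fish -30.4, -18.3 and -6.52, while the LLH fish had 17.8 to 23.4. Further, MHL-1 and MHL-3 of the liver differed by less than the noise between spots. The SD of their difference was 0.15 on the log2 scale, against 0.18 to 0.25 between duplicate spots of 1 array and at least 0.36 for any other pair of liver fish of 1 group. Only 23 sequences differed between them by more than 1 on the log2 scale, compared with at least 377 in every other such pair. They were therefore averaged and counted as 1 sample, which leaves 3 MHL samples. The MHL samples enter the comparison of LLH with HLL through the estimate of the spread and of the dye effect. MHL-2 and MHL-4 shared arrays with LLH-2 and HLL-4, so they also shift the fitted difference slightly. The starved fish enter in the same ways, and they shared arrays with HLL-1, HLL-2, LLH-3 and LLH-4.

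Values below are normalised log2 intensities, and a difference of 1 is a 2-fold change. Differences between groups are the fitted ones, except where the dyes are given apart. They take account of the other fish on an array and can depart somewhat from the difference of the listed values. A limma fit of all liver channels, in which dye was a term and fish on 1 array were allowed to correlate, found 184 sequences significantly higher and 184 significantly lower in LLH livers than in HLL livers (adjusted P value under 0.05, n = 4 fish per diet). Together these were 368 of 25225 sequences, or 1.46% (0.729% in each direction). At an unadjusted P value under 0.05 there were 3539. Past a 2-fold change, 32 sequences were higher and 19 lower, and 5 and 3 passed 4-fold. The median difference was 0.47 among the higher and -0.59 among the lower sequences, with a median standard error of 0.094 over both, and 0.00 over all sequences. Among the significant sequences, 164 of the higher and 172 of the lower had all 4 LLH fish on 1 side of all 4 HLL fish, whereas over the whole array this was so for 953 (3.78%) and 1113 (4.41%).

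**Figure D1:**
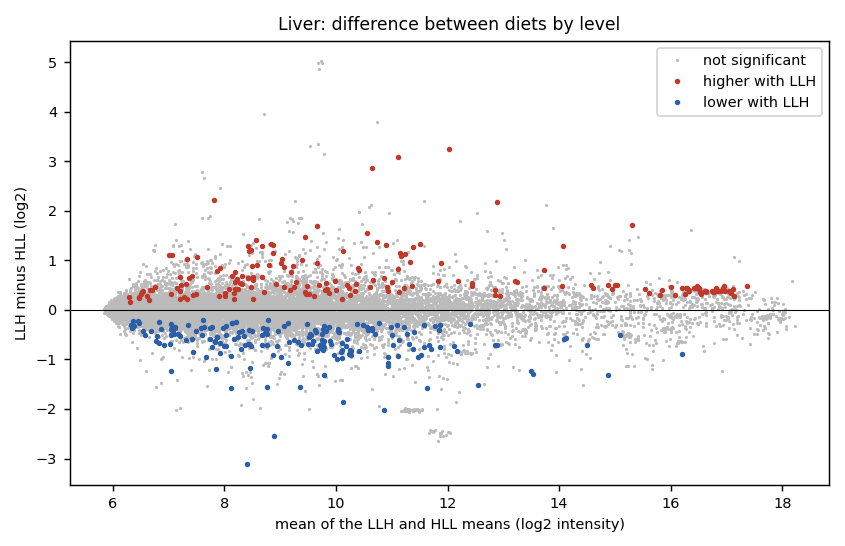
Fitted LLH minus HLL difference in the liver (log2, vertical axis) against the mean of the LLH and HLL means (log2 intensity, horizontal axis). Each point is 1 sequence. The 184 higher and 184 lower sequences are coloured. When all sequences are split into 4 equal classes of level, the dimmest class holds none of them and the brightest holds 115 higher and 98 lower ones.

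This count depended on the label, on the fish and on the fit. The planned fit, which entered MHL-1 and MHL-3 as separate samples and estimated the correlation within arrays by intraspotCorrelation, found 276 higher and 304 lower sequences. Counting them once with that estimate gave 192 higher and 201 lower. The fit reported here counts them once and estimates the correlation by duplicateCorrelation, a choice made after the counts of these fits had been seen. With the Cy5 fish in question entered as LLH, 0 sequences were significant and 2147 had an unadjusted P value under 0.05. Without that fish 38 higher and 50 lower sequences were significant. The higher and lower ones numbered 52 and 40 without LLH-1, 79 and 108 without LLH-2, 32 and 34 without LLH-3, 51 and 56 without HLL-2, and 67 and 54 without HLL-3. Without LLH-4 the lower sequences numbered 97 in place of 184. A fit of the 8 LLH and HLL channels alone gave 85, and log ratios within arrays, none of which compares the diets directly, gave 3. Without normalisation between arrays, 75 were higher and 113 lower. All 368 sequences kept the sign of their difference under each of these settings. They had been selected in these same fish, so this is no separate support for them.

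**Figure D2:**
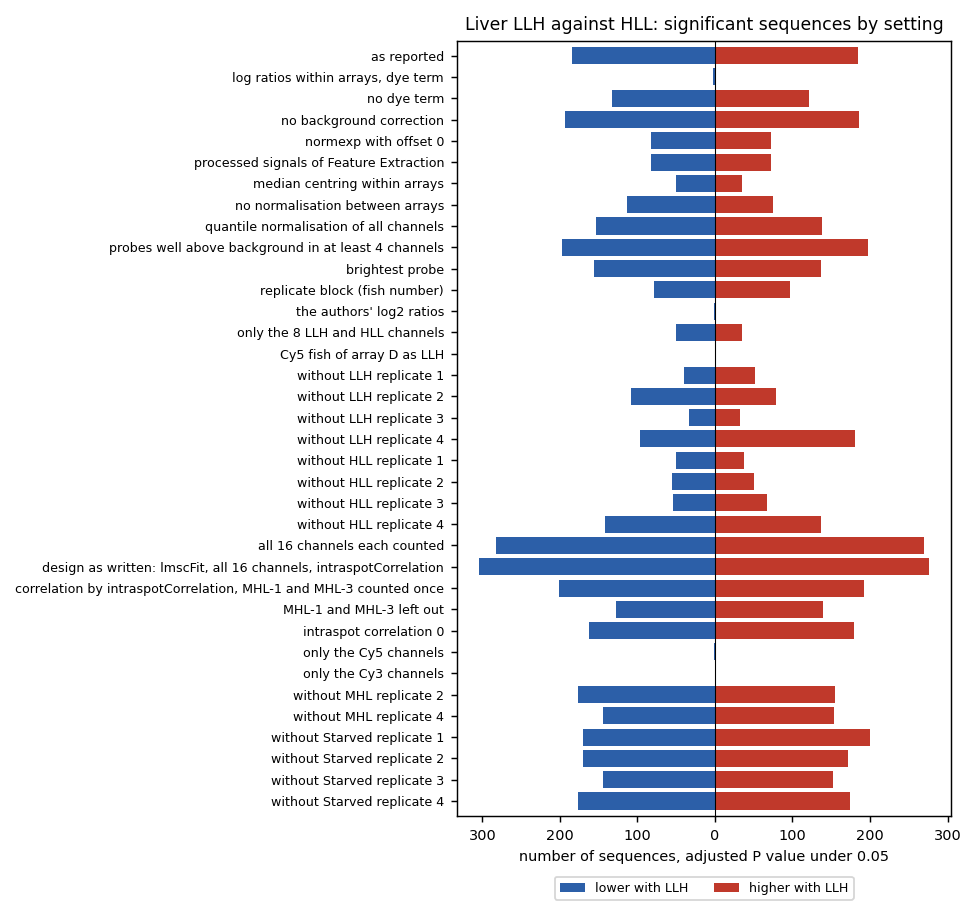
Number of sequences lower (blue, to the left) and higher (red, to the right) with LLH than with HLL in the liver at an adjusted P value under 0.05, with 1 bar pair per setting. The reported fit (top) has 184 on each side, the planned fit 304 and 276, and entering the Cy5 fish of array D, the one with 2 labels, as LLH leaves 0.

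The cytosolic forms of alanine aminotransferase did not pass the threshold in the reported fit and passed it in the planned one. The cALT1 values were 15.08, 14.55, 15.21 and 15.49 in the 4 LLH fish, against 15.83, 16.22, 16.02 and 15.96 in the 4 HLL fish. The groups did not overlap. Its difference was -0.97 (standard error 0.23), with an adjusted P value of 0.068 from limma, and the exact two-sided permutation test gave p = 0.0286, the smallest that 4 against 4 fish allow, unadjusted for the 8 symbols tested in this way. For cALT2 the LLH fish had 15.04, 14.53, 15.23 and 15.59 and the HLL fish 15.87, 16.22, 16.03 and 16.04, with a difference of -0.99 (standard error 0.24, adjusted P value 0.074, limma). In the planned fit the differences were -1.01 for cALT1 and -1.03 for cALT2, with adjusted P values of 0.037 and 0.041 (limma). Without LLH-4, both passed as well (0.041 and 0.033). Without any other single LLH or HLL fish neither did (adjusted P values 0.11 to 0.19, limma). With HLL-1 entered as LLH they had 0.40 and 0.42. Each passed under 4 of 35 other settings. In cALT2, too, every LLH fish lay below every HLL fish. The 2 identifiers differed by at most 0.093 within any of these fish, and whether their probes tell the 2 transcripts apart was not tested. The mitochondrial form mALT averaged 13.88 ± 0.10 in LLH livers and 13.91 ± 0.33 in HLL livers (SD, n = 4 each), a difference of -0.01 with a 95% confidence interval of -0.38 to 0.37, and the groups overlapped.

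Both identifiers of the lipogenic carboxylase were significantly lower with LLH, at intensities near the lower end of the scale. Whether their probes tell separate transcripts apart was not tested, so they may not be separate results. ACC1tv2 had 6.47, 6.75, 6.54 and 6.48 in LLH fish, against 6.93, 7.18, 7.12 and 7.85 in HLL fish. All LLH values were below all HLL values, and HLL-4 stood highest. The difference was -0.71 (standard error 0.14, adjusted P value 0.034, limma), or 1.63-fold, and its 2 probes gave -0.69 and -0.73. For ACC1tv1 the values were 6.07, 6.30, 6.15 and 6.11 with LLH and 6.36, 6.53, 6.42 and 6.75 with HLL, a difference of -0.36 (standard error 0.064, adjusted P value 0.024, limma). Only 1 of 4 LLH fish gave a spot of ACC1tv1 well above background, compared with 4 of 4 HLL fish, and 1 of its probes gave -0.61 and the other -0.12. The offset added in the background correction shrinks differences at this level. With an offset of 0 the difference was -1.21 for ACC1tv2 and -0.87 for ACC1tv1, both still significant (adjusted P values 0.041 and 0.045, limma), and without background correction neither was (0.064 and 0.055). ACC1tv2 lost significance when any single LLH fish or HLL-1, HLL-2 or HLL-3 was left out (adjusted P values 0.054 to 0.093), and ACC1tv1 when LLH-1, LLH-3, HLL-2 or HLL-3 was (0.055 to 0.076).

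ACC2 averaged 6.33 ± 0.08 in LLH livers and 6.48 ± 0.12 in HLL livers (SD, n = 4 each). Its difference of -0.14 had a 95% confidence interval of -0.26 to -0.02 and did not pass the adjustment over all sequences (adjusted P value 0.28, limma). Of its 2 probes, 1 gave -0.26 and the other -0.02. With an offset of 0 in the background correction the ACC2 difference was -0.31 (adjusted P value 0.39, limma). Neither pyruvate kinase passed. PKL, the liver form, averaged 10.33 ± 0.34 with LLH and 10.12 ± 0.24 with HLL (SD, n = 4 each), with a difference of 0.19 and an interval of -0.20 to 0.58. PKM, the muscle form, was dim but well above background in 4 of 4 fish of each diet, at 6.35 ± 0.11 with LLH and 6.33 ± 0.05 with HLL (SD, n = 4 each), and its interval was -0.10 to 0.14. The fish of both diets overlapped in all 3 of these. In the skeletal muscle, normalised separately, PKM read only 6.41 to 6.52 in the LLH and HLL fish. Whether its probes report the muscle form was not tested. The offset in the background correction shrinks differences at this level too, and the ACC2 and PKM intervals hold for the shrunken values.

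**Figure D3:**
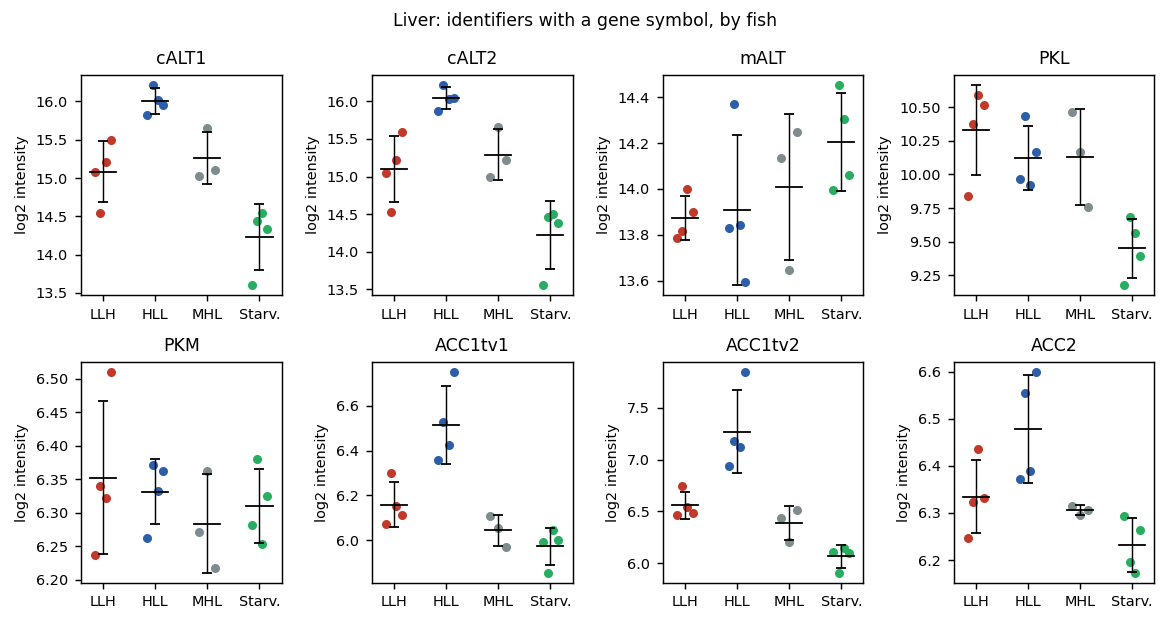
Normalised log2 intensity in the liver of the 8 identifiers that carry a gene symbol, with 1 point per fish for LLH, HLL, MHL (MHL-1 and MHL-3 averaged to 1 point) and starved fish, and the mean with its SD. The vertical axes differ between panels and do not start at 0. In cALT1, cALT2, ACC1tv1 and ACC1tv2 the 4 LLH fish lie below the 4 HLL fish.

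The largest increases were in sequences without a gene name. The sequence isotig07662 had 13.24, 14.56, 13.62 and 13.14 in LLH fish, against 10.37, 10.36, 8.35 and 12.55 in HLL fish. LLH livers spread less (SD 0.65) than HLL livers (SD 1.72), and HLL-4 was nearest to LLH. Its difference was 3.25 (standard error 0.65, adjusted P value 0.037, limma), or 9.50-fold. This standard error pools the spread of all liver groups, and the SD was 0.14 among starved fish and 1.26 among MHL samples. The low spread of the starved fish enters it although they had neither diet. For isotig19168 the LLH fish had 13.05, 12.76, 12.82 and 12.06 and the HLL fish 8.83, 10.14, 8.08 and 11.22, with a difference of 3.09 (standard error 0.51, adjusted P value 0.021). HLL-4 was again the HLL fish nearest to LLH. In isotig12081 the values were 12.33, 12.70, 11.98 and 11.22 with LLH and 9.10, 8.72, 8.10 and 10.97 with HLL (difference 2.86, standard error 0.58, adjusted P value 0.039). LLH-4 and HLL-4 came close to each other there, although the groups did not overlap.

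The next largest increases were those of isotig11503 (difference 2.22) and isotig03245 (2.18), then isotig10454 (1.72), IFXJFUR02FMQH5 (1.69), isotig03600 (1.56), isotig09819 (1.47) and IFXJFUR02IL5RL (1.42), with adjusted P values from limma between 0.0187 and 0.0402. The brightest of these 10 was isotig10454, with 16.20 ± 0.36 in LLH livers and 14.41 ± 0.45 in HLL livers (SD, n = 4 each). The dimmest was isotig11503, with 8.91 ± 0.80 in LLH livers and 6.73 ± 0.69 in HLL livers.

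Among the decreases, isotig06565 had 6.60, 7.26, 6.52 and 7.02 in LLH fish, against 11.48, 9.81, 9.57 and 8.95 in HLL fish. The LLH values were low and closer together than the HLL values, and HLL-1 stood highest among the HLL fish. The difference was -3.12 (standard error 0.49, adjusted P value 0.017, limma). For isotig06385 the values were 7.73, 7.89, 7.64 and 7.33 with LLH and 10.01, 10.05, 10.65 and 9.84 with HLL, with the groups far apart. Its difference of -2.55 (standard error 0.27) had an adjusted P value of 0.0051 and remained significant under 31 of 35 other settings. The 2 probes of isotig06385 did not give the same size of change, with -4.52 in one and -0.58 in the other.

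In isotig07708 the LLH fish had 9.60, 10.93, 9.41 and 9.67 and the HLL fish 11.87, 11.99, 12.27 and 11.17, with a difference of -2.02 (adjusted P value 0.048, limma). LLH-2 came close to the HLL fish, and neither probe alone passed the threshold. IFXJFUR02GFKC6 followed with -1.86, and IFXJFUR01CIEO0 (-1.59), isotig09919 (-1.57), isotig12296 (-1.55), isotig14458 (-1.55), isotig11042 (-1.52) and isotig08215 (-1.32) completed the 10 largest decreases. In 17 of these 20 leading sequences the SD among the HLL fish was larger than among the LLH fish. This was so in 57.1% of all significant sequences and in 48.3% of all sequences.

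**Figure D4:**
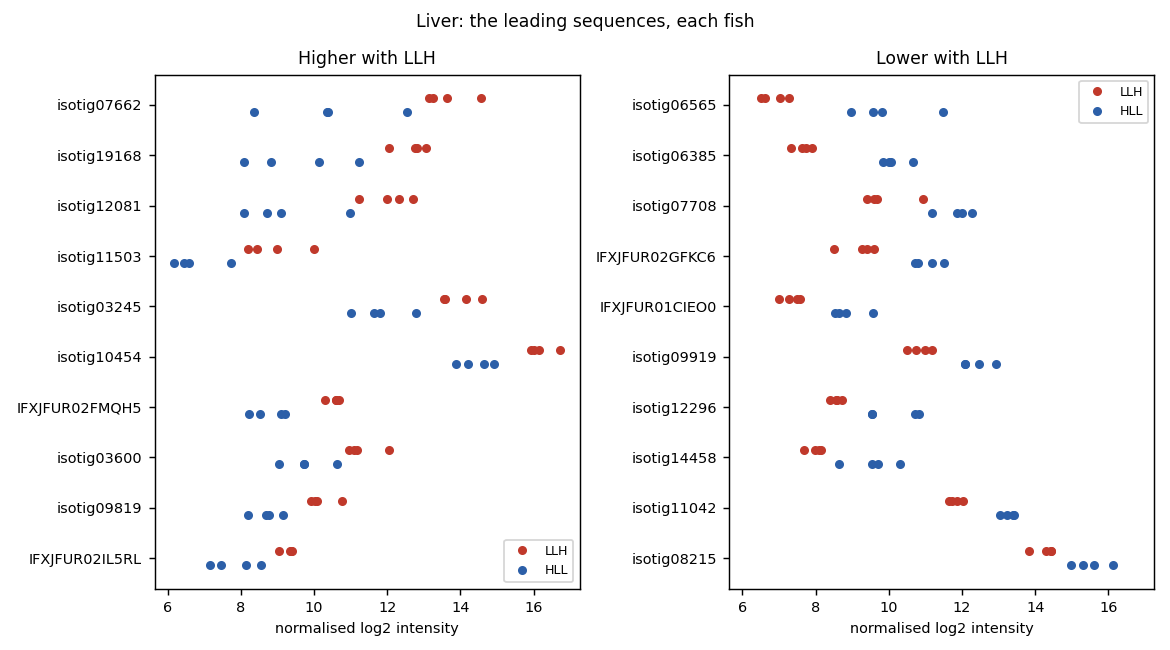
Normalised log2 intensity of each LLH and HLL fish in the 10 significant sequences with the largest increase (left) and the 10 with the largest decrease (right), under the naming rule. Each point is 1 fish, and in every sequence the 4 LLH fish lie on 1 side of the 4 HLL fish.

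At a stricter adjusted P value under 0.01 there were 17 sequences, 5 higher and 12 lower with LLH, which were singled out after their values were seen. The smallest adjusted P value was that of isotig08986 (0.00094, limma), with 11.63, 11.37, 11.39 and 11.36 in LLH fish, against 9.85, 10.17, 10.30 and 9.89 in HLL fish, a difference of 1.37 (standard error 0.11). Both its probes gave 1.37. For isotig11725 the LLH fish had 10.26, 10.37, 10.59 and 10.29 and the HLL fish 11.67, 11.36, 11.47 and 11.51, with a difference of -1.14 (standard error 0.11, adjusted P value 0.0051). In both sequences the fish of a diet lay close together and the diets far apart. The isotigs of consecutive number isotig03888 and isotig03889 were also among the 17, with differences of -0.66 and -0.64. Among all 309 significant isotigs, 33 fell in 16 runs of consecutive numbers, and in 15 runs the members changed in 1 direction. The exception was isotig12332 with isotig12333. Consecutive isotigs of an assembly can be variants of 1 gene, and the files do not give their groups, so the number of genes may be smaller than the number of sequences.

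The probes and the dyes were compared within the significant sequences as a description. These sequences had been selected for a difference in the same fish. Agreement of sign is therefore largely set by the selection and is no separate support for them. Of the 352 with 2 probes, 351 had the same sign in both, and the exception was isotig15739. Both probes passed the threshold by themselves in 136 (38.6%), 1 in 154 and neither in 62. Of the sequences that were not significant, 70.01% had 2 probes of the same sign. All 368 had the same sign among Cy5 fish and among Cy3 fish, compared with 60.3% of all sequences. The median difference of the higher sequences was 0.48 with Cy5 and 0.47 with Cy3, and that of the lower sequences was -0.60 with Cy5 and -0.50 with Cy3. In isotig19168 the difference was 4.48 with Cy5 and 1.73 with Cy3. With 2 fish per diet and dye, the Cy5 channels alone gave 2 significant sequences and the Cy3 channels alone gave 0 (2583 and 1901 at an unadjusted P value under 0.05).

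The levels with diet MHL and in starved fish were set beside those of LLH and HLL. These comparisons share the LLH or HLL fish, so their values are given only side by side. In the 184 sequences higher with LLH, the median difference from HLL was 0.28 for MHL and 0.38 for starved fish, next to the 0.47 of LLH. In the 184 lower ones it was -0.40 for MHL and -0.48 for starved fish, next to -0.59. Over the array, 9 sequences (0.0357%) differed significantly between MHL and HLL, 0 (0%) between LLH and MHL (limma, with 1563 at an unadjusted P value under 0.05), 5990 (23.7%) between starved fish and HLL and 5312 (21.1%) between starved fish and LLH. The leading sequences showed several patterns. In isotig07662 the starved fish had 9.40 to 9.72, between HLL-3 and the other HLL fish, and in isotig12081 7.43 to 8.26, around and below the lowest HLL fish. In isotig03245 they averaged 15.80, each above all LLH fish, and in isotig03600 they had 12.71 to 13.26, again above all LLH fish. Among the decreases, the starved fish of isotig06385 lay lowest, at 6.37 to 6.52. For cALT1 the average was 15.26 with MHL and 14.23 in starved fish. For ACC1tv2 it was 6.38 with MHL and 6.07 in starved fish, and for ACC1tv1 6.04 and 5.97. MHL minus HLL was -0.77 for cALT1, -0.87 for ACC1tv2 and -0.46 for ACC1tv1 (adjusted P values 0.27, 0.062 and 0.052, limma). The MHL averages of ACC1tv1 and ACC1tv2 were thus below those of LLH (6.16 and 6.56).

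The same contrast was made in the skeletal muscle, on the other slide. There, 60 of 25222 sequences (0.238%) differed between LLH and HLL. Of the sequences higher with LLH in the liver, 109 of 184 (59.2%) had a positive difference in the muscle, and of those lower in the liver 71 of 184 (38.6%) did, compared with 52.7% of all sequences. Significant in both tissues in the same direction were isotig06480, isotig01219 and isotig06565. For isotig06565 the muscle difference was -1.26 (standard error 0.22, adjusted P value 0.044, limma), with 10.97, 11.62, 11.81 and 10.996 in LLH muscles, against 12.34, 12.81, 12.44 and 12.71 in HLL muscles. The LLH muscles were thus all below the HLL muscles.

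The difference between the tissues was itself tested in 1 limma fit over the arrays of both, as an interaction. It was significant in 295 of 25222 sequences (1.17%), and 3137 had an unadjusted P value under 0.05. The count was 7 with log ratios, 136 with median centring, 802 without normalisation between arrays, and 157 to 328 when single LLH or HLL fish were left out. The titles number the fish alike in both tissues, so liver and muscle may come from the same fish, which this fit does not take into account. With 1 liver minus muscle value per fish number, 52 sequences were significant, 44 of them among the 295. For cALT1 LLH minus HLL was -0.97 in liver, against 0.75 in skeletal muscle, where LLH fish had 12.58, 12.25, 12.05 and 12.90 and HLL fish 11.79, 11.33, 11.68 and 11.96. LLH fish were thus all below HLL fish in the liver and all above them in the muscle. Neither difference was significant alone over all sequences, and the interaction had an adjusted P value of 0.024, or 0.13 by fish number (limma). For cALT2 these were 0.026 and 0.12. For ACC1tv2 the interaction was -0.63 (adjusted P value 0.017), but no muscle of either diet was well above background (6.09 to 6.21), so a change in the muscle was not detectable and the tissues cannot be compared. The smallest adjusted P value among the named sequences was that of isotig06385, with a liver difference of -2.55 and a muscle difference of 0.34 (interaction -2.87, adjusted P value 3.22e-05, or 0.029 by fish number). Each tissue lay on 1 slide, so tissue and slide cannot be told apart.

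**Figure D5:**
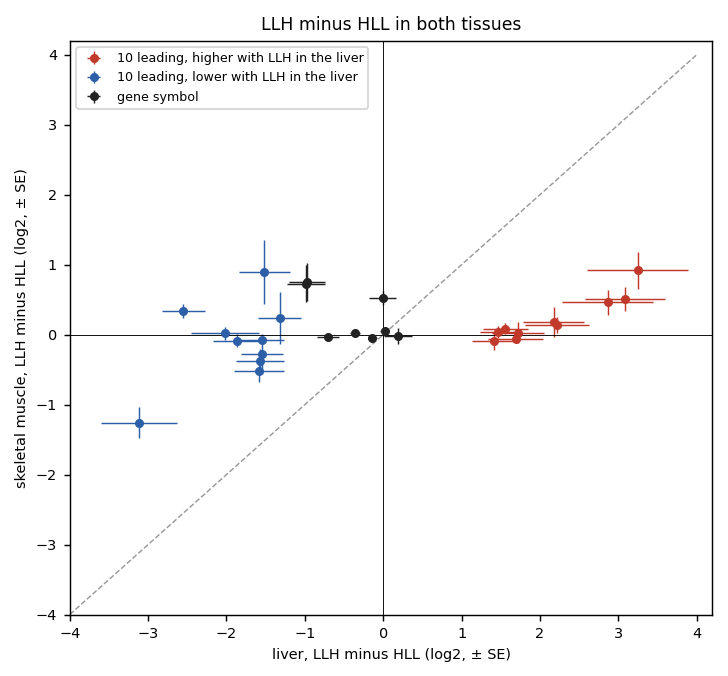
Difference of LLH minus HLL (log2) in the liver (horizontal axis) and in the skeletal muscle (vertical axis) for the 20 leading sequences of the liver and the 8 identifiers with a gene symbol, with standard errors. The dashed line marks equal differences. The leading sequences were chosen for their liver difference. Their muscle differences ran from -1.26 (isotig06565) to 0.92 (isotig07662). There isotig12296, IFXJFUR02FMQH5 and isotig03600 were well above background in at most 3 of 8 LLH and HLL fish, so changes were hardly detectable.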

How the data were processed

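The authors deposited the Feature Extraction output (Agilent Feature Extraction 10.7) of 16 two-colour arrays, with raw median intensity of spot and background for each dye, the log10 ratio of the dyes, and flags. A further deposited table holds their normalised log2 ratios, matched to the probes by reversed feature order (correlation with the scanner ratio 0.83 to 0.91 per liver array). In R 4.3.3 with limma 3.58.1, normexp with offset 50 was applied, 1319 control spots were removed, outlier-flagged spots were set missing, and Loess and Aquantile were applied as in the study's methods. Spots of a probe and then probes of a sequence were averaged, the latter after removing each probe's mean. Of 25225 sequences, 24148 had 2 probes. The log2 channels were modelled with lmFit on group and dye, blocking by array, and two-sided P values were adjusted by Benjamini-Hochberg across the array. The planned fit was lmscFit on all 16 liver channels with intraspotCorrelation (0.21). The reported fit departs from it by counting MHL-1 and MHL-3 as 1 sample, since they differed less than duplicate spots, and by estimating the correlation with duplicateCorrelation (0.14). Both departures were chosen after the counts under each fit had been seen, and the counts of all of them are given. The fit was tested on simulated data. Named were the 10 largest differences in each direction among significant sequences whose diets did not overlap, whose probes had 1 sign and which were well above background in at least 3 of 4 fish of the brighter diet, and every gene symbol. Members and lists were chosen with earlier results of these data known. P values measure the spread between these fish, taken as independent although fish of a diet may have shared an aquarium. Planned marker and pathway lists were not applied, since the identifiers carry no gene descriptions. Probe sequences were not used here.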

Additional observations from a re-analysis of the deposited data

Results flagged for a closer look

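In 84 groups of 4 fish, for the 28 named sequences in LLH, HLL and starved livers, 5 held a fish far from the other 3, and chance gives about 1 in 20. LLH-2 had 9.04 for IFXJFUR02IL5RL, where the other LLH fish had 9.35 to 9.40. For isotig07708 LLH-2 had 10.93 and the others 9.41 to 9.67. Starved-1 had 7.85 for IFXJFUR02IL5RL and 13.55 for cALT2, where the other starved fish had 8.32 to 8.41 and 14.38 to 14.50. Starved-3 had 12.71 for isotig03600, and the others 13.25 to 13.26.

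The difference of LLH minus HLL was not the same in liver and muscle in 295 sequences (limma interaction, adjusted P value under 0.05). Among those named, the liver minus muscle value was positive for isotig19168 (2.52), isotig11503 (2.01), isotig03245 (1.97), IFXJFUR02FMQH5 (1.67), isotig10454 (1.66), IFXJFUR02IL5RL (1.49), isotig03600 (1.45) and isotig09819 (1.43). It was negative for isotig06385 (-2.87), isotig11042 (-2.43), isotig07708 (-2.05), IFXJFUR02GFKC6 (-1.79), cALT1 (-1.75), cALT2 (-1.74), isotig12296 (-1.45), ACC1tv2 (-0.63) and ACC1tv1 (-0.38). In the muscle, isotig12296 and ACC1tv2 were well above background in 0 of 8 LLH and HLL fish, ACC1tv1 and IFXJFUR02FMQH5 in 1, and isotig03600 in 3, so for these a change in the muscle was hardly detectable and the values restate the liver. With 1 liver minus muscle value per fish number, isotig06385, IFXJFUR02IL5RL and isotig09819 stayed significant (adjusted P values 0.029, 0.029 and 0.033, limma), and the others of these did not (0.065 to 0.13). Leaving out each LLH or HLL fish of either tissue moved the 295 to between 157 and 328. It was 178, 165 and 193 without LLH-1, LLH-3 and HLL-1 of the liver. Without LLH-2, LLH-3, LLH-4, HLL-1, HLL-3 and HLL-4 of the muscle it was 192, 194, 190, 157, 165 and 188.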

How the results depend on the processing

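All 368 sequences kept their sign under every alternative in which they were tested, and so did all named sequences except mALT and PKM. The mALT difference, -0.01 in the reported fit, ranged from -0.14 to 0.15. The PKM difference, 0.02 in the reported fit, ranged from -0.03 to 0.18. Neither was significant under any alternative. The 28 named sequences gave 980 comparisons with 35 alternatives. Of these comparisons, 647 left the call as it was, 325 ended it and 8 added one. The 647 include symbols that were not significant in the reported fit (ACC2, cALT1, cALT2, mALT, PKL and PKM), which had no call to lose. All 325 ended calls thus fell among the other named sequences. The counts moved. Numbers are sequences higher, lower, higher and lower by 2-fold or more, and symbols significant, where the reported fit had 184, 184, 32, 19 and 2. With HLL-1 entered as LLH all 5 were 0, as they were with the Cy3 channels alone. They were 1, 2, 1, 0 and 0 with log ratios, 1, 1, 1, 1 and 0 both with the authors' log2 ratios and with the Cy5 channels alone, 35, 50, 12, 9 and 1 with median centring, and 35, 50, 4, 8 and 0 with the 8 LLH and HLL channels alone. No normalisation between arrays gave 75 higher, 113 lower and 4 symbols. Normexp with offset 0 gave 72 and 82, and the processed signals of Feature Extraction 72 and 83, with 35 lower by 2-fold. Without a dye term there were 121 higher and 0 symbols, and without background correction 0 symbols.

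The planned fit (all 16 channels, intraspotCorrelation) gave 276 higher, 304 lower, 33 lower by 2-fold and 4 symbols. With all 16 channels and duplicateCorrelation there were 269 higher, 283 lower and 4 symbols, and with 15 channels and intraspotCorrelation 192 and 201. Every such added fit was chosen after seeing the data. Leaving out each LLH or HLL fish gave 32 to 181 higher, 34 to 142 lower, 1 to 35 and 3 to 17 past 2-fold, and 0 to 3 symbols. Leaving out MHL-2, MHL-4 or a starved fish gave 152 to 200, 144 to 176, 24 to 32, 18 to 28, and 2 symbols, and leaving out the merged MHL-1 and MHL-3 gave 139, 128, 23, 15 and 2. Same-numbered fish did not deviate together (24 pairs, correlations -0.26 to 0.15), and with the fish number as a replicate block there were 97 higher, 78 lower, 16 and 7 past 2-fold, and 0 symbols. The 295 interactions were 7 with log ratios, 136 with median centring, 802 without normalisation between arrays, 52 with fish number as a replicate block across tissues, and 157 to 328 without single fish. Liver and muscle deviations of 14 same-numbered fish correlated at -0.11 to 0.18 (2 over 0.1). The causes were not tested. The slide as a block was not run, since each tissue had 1 slide. In 20.7% of sequences no LLH or HLL fish was well above background, and small changes there were not detectable.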

Other observations

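The log-ratio fit gave 3 significant sequences, which were singled out after their values were seen. They were isotig10807 (3.94), isotig02686 (-0.997) and isotig11777 (-0.87). The authors' log2 ratios gave isotig10807 (4.38) and isotig06385 (-3.30). In the separate channels isotig10807 was not significant (adjusted P value 0.22, limma), and its fish fell far apart within groups. It had 12.31, 6.07, 11.94 and 12.29 in LLH livers, against 6.01, 7.99, 6.05 and 7.01 in HLL livers. Starved livers had 6.08, 11.82, 7.69 and 11.91. LLH-2 was thus at the level of the low HLL fish, and the starved group held both high and low fish. MHL-1 and MHL-3, otherwise alike, had 8.21 and 6.04. MHL-1 shared its array with LLH-1 (12.31) and MHL-3 with HLL-3 (6.05). HLL-2 (7.99) shared its array with Starved-2 (11.82). Whether the other fish of an array raised a low value was not tested.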
